A study of Mus musculus with 4 samples.

Results

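Scg2 and Serpine2 are neighbouring genes on mouse chromosome 1. Both were lower in libraries labelled as gonadotropes of Gata2 conditional knockout mice than in those of controls. They were examined together with 5 protein-coding genes that lie between or beside them: Ap1s3, Wdfy1, Mrpl44, Cul3 and Dock10. The 7 genes were taken by symbol from the 54532 rows of the deposited count table, and all 7 were among the 17349 genes with enough counts to be tested. Scg2 and Serpine2 were chosen by their adjusted p-values in this same comparison, which were under 0.05 (0.0413 for Scg2 and 0.0263 for Serpine2, edgeR), so their levels are given here as a description. In the 5 Mb around the locus, the gene just outside that threshold was Resp18 (adjusted p = 0.0931). The other 5 genes were taken for their position. The comparison addresses whether genes between and beside the pair differed in the knockout too.

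Gonadotropes are the pituitary cells that make luteinizing hormone and follicle-stimulating hormone, and GATA2 is a zinc-finger transcription factor that binds DNA at GATA letters. Scg2 codes for secretogranin II, an acidic granin that is packed into the dense-core granules in which gonadotropes store their hormones, and that is cut to give peptides such as secretoneurin. Serpine2 codes for protease nexin-1, a secreted serpin that inhibits thrombin, urokinase and tissue plasminogen activator. Between them lie Ap1s3, a small subunit of the AP-1 clathrin adaptor that sorts cargo at the trans-Golgi network and endosomes; Wdfy1, a FYVE-domain protein of endosomes linked to Toll-like receptor signalling; and Mrpl44, a protein of the large subunit of the mitochondrial ribosome. Beyond Serpine2 lie Cul3, the scaffold of a family of ubiquitin ligases, and Dock10, a guanine nucleotide exchange factor for the small GTPases CDC42 and RAC.

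Of the 4 libraries, 2 came from conditional knockout mice for GATA2 (cKO), and 2 from mice labelled only as control. All animals were males of mixed strain, 10 to 12 weeks old. Polyadenylated RNA came from gonadotropes that had been sorted from pituitaries, per the labels' protocols, although the design text speaks of bulk pituitaries. The series' title calls the knockout gonadotrope-specific, and the sources used here name neither the Cre driver nor the alleles that the controls carry. Nothing in the labels says that each library came from its own animals, so the p-values given here rest on a spread between libraries that may be technical.

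Total estimated counts were 15541553 and 18362182 in the cKO libraries, against 10646909 and 21135301 in the control libraries. Levels are CPM, which sets each gene's count against 1000000 counts of its library after TMM scaling, and 3 counts, the level that a count of 0 allows, were worth 0.143 to 0.273 CPM across the libraries, for counting error only. Gata2 itself, on chromosome 6, had 221 and 214 CPM in cKO against 537 and 526 CPM in control libraries (log2 fold change -1.29, SE 0.14, adjusted p = 0.0473, edgeR's quasi-likelihood test). That is 41.0% of control, counted over the whole gene, so the value does not measure the deleted part. Control replicate 1 stood apart: across genes its log2 CPM correlated at 0.841 and 0.854 with the cKO libraries, against 0.917 and 0.928 for control replicate 2 (Pearson's r), and at 0.889 with control replicate 2. This library also had the lowest total count and the fewest genes with a count, 15425 against 17624 to 21824 in the others. The part of depth in these correlations was not tested. Of 13 tested gonadotrope markers, 12 were lower in cKO, with summed levels of 7454 and 8962 CPM in cKO against 16775 and 15089 CPM in control libraries, and Otx1 at 0 in all 4. Of 6 tested lactotrope markers, 6 were higher, with sums of 1362 and 1393 CPM in cKO against 359 and 650 CPM in control libraries, and Akr1c18 and Agtr1b at 0 in all 4. Of 8 corticotrope and melanotrope markers, 7 were lower, with sums of 6415 and 7592 CPM in cKO against 7615 and 10279 CPM in control libraries. Most of that sum was Pomc, with 6032 and 7145 CPM in cKO against 7161 and 9813 CPM in control libraries. Cga, the gonadotrope marker with the highest level, had 3448 and 4185 CPM in cKO against 6054 and 6137 CPM in control libraries. Pomc was above Cga in all 4 libraries. Of 6 tested somatotrope markers, 3 were higher and 3 lower, and Gh had 2149 and 385 CPM in cKO against 1124 and 2375 CPM in control libraries. Of 5 tested thyrotrope markers, 4 were higher and 1 lower. The part of these differences in the results below was not tested, and in bulk RNA fewer cells of a type and less RNA per cell cannot be told apart.

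The stretches just upstream of 4 of the genes are shown because they let the DNA of the pair that was lower be read beside that of Ap1s3, which lies between them, and of Dock10, which had the lowest fold change of the 7. Each is on the minus strand of chromosome 1, printed 5′ to 3′ from RefSeq promoters (GRCm38.p6), and leaves out exon bases except for 24 bases around a palindrome near the Scg2 start. Capitals mark a full GATA motif (AGATAA) and the cAMP response element letters (TGACGTCA).
Scg2, chr1:79440121-79440276: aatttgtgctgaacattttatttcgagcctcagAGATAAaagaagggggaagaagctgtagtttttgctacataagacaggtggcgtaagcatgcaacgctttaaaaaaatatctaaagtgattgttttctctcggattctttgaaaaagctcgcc
Scg2 around the palindrome, chr1:79440079-79440102: tgagccggTGACGTCAgcgtggaa
Serpine2, chr1:79858697-79858915: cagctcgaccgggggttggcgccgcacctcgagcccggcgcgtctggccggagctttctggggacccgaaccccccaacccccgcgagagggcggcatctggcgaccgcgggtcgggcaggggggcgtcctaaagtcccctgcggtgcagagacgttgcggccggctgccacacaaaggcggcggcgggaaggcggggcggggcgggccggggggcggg
Ap1s3, chr1:79671973-79672222: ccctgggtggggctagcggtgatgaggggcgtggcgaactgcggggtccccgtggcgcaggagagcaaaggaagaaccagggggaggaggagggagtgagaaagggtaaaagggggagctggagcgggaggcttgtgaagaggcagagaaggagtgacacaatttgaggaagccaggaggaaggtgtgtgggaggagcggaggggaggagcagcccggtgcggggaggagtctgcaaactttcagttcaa
Dock10, chr1:80758554-80758803: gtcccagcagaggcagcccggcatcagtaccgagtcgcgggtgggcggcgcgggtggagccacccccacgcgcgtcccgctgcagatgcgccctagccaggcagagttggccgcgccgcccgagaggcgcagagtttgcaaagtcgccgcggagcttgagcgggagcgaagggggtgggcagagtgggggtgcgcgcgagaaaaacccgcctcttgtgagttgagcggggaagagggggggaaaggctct

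The upstream letters of Scg2 and Serpine2 differed in their share of G and C, and both held more CpG than the median promoter. RefSeq promoters were matched for 6 of the 7 genes, with 2 starts for Dock10, and the 250 bases before each start were searched on both strands. In Scg2 they were 48.0% G or C with 13 CpG, and in Serpine2 78.8% with 34 CpG, against medians of 52.4% and 6 CpG over 32851 mouse promoters. Scg2 held AGATAA at position -217, counted from the RefSeq start, a motif found in 9.99% of all promoters of that length, and TGACGTCA at position -68, found in 1.55%. Serpine2 held no GATA letters in this window, and neither did Ap1s3, Cul3 or the outer start of Dock10, whereas 53.6% of all promoters did. Beside AGATAA, the search took in AGATAG (7.71% of all promoters), TGATAA (7.94%) and TGATAG (6.35%), and 26.5% of all promoters held at least 1 of these 4. Mrpl44 had TGATAG at position -107. The inner start of Dock10 had AGATAG on the opposite strand at position -111. TATAAA, found in 12.4% of all promoters, was in none of the 7 windows. The RefSeq start used for Serpine2 lies inside the gene's GENCODE span, and starts further out were not searched. These are matches of letters only, and no binding was measured here.

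Scg2 (ENSMUSG00000050711.7) occupies chromosome 1, 79434669 to 79440120 in mm10, on the minus strand, with 2515 exon bases. It had 6883 and 7496 CPM in the cKO libraries, against 22408 and 16411 CPM in the control libraries, from 107032 and 133373 counts in cKO and 246416 and 343400 counts in control. Both cKO libraries lay far below both controls, and control replicate 1 was the highest of the 4. The mean was 7189 ± 434 CPM in cKO and 19409 ± 4240 CPM in control (SD, n = 2 each), or 37.0% of the control mean, a log2 fold change of -1.43 (SE 0.14, 95% interval -1.77 to -1.09). By CPM Scg2 ranked 5th and 6th in cKO libraries, against 1st and 2nd in control libraries.

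Serpine2 (ENSMUSG00000026249.10), at 79794197 to 79861180 on the minus strand with 8287 exon bases, had 137 and 109 CPM in cKO, against 563 and 509 CPM in control libraries. The groups did not overlap, and within each group the libraries lay close together beside the gap between groups. The mean was 123 ± 19.8 CPM in cKO and 536 ± 37.7 CPM in control (SD, n = 2 each), or 23.0% of control, a log2 fold change of -2.12 (SE 0.17, 95% interval -2.53 to -1.71). Its rank by CPM was 1530 and 2088 in cKO libraries, against 143 and 158 in control libraries.

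**Figure D1:**
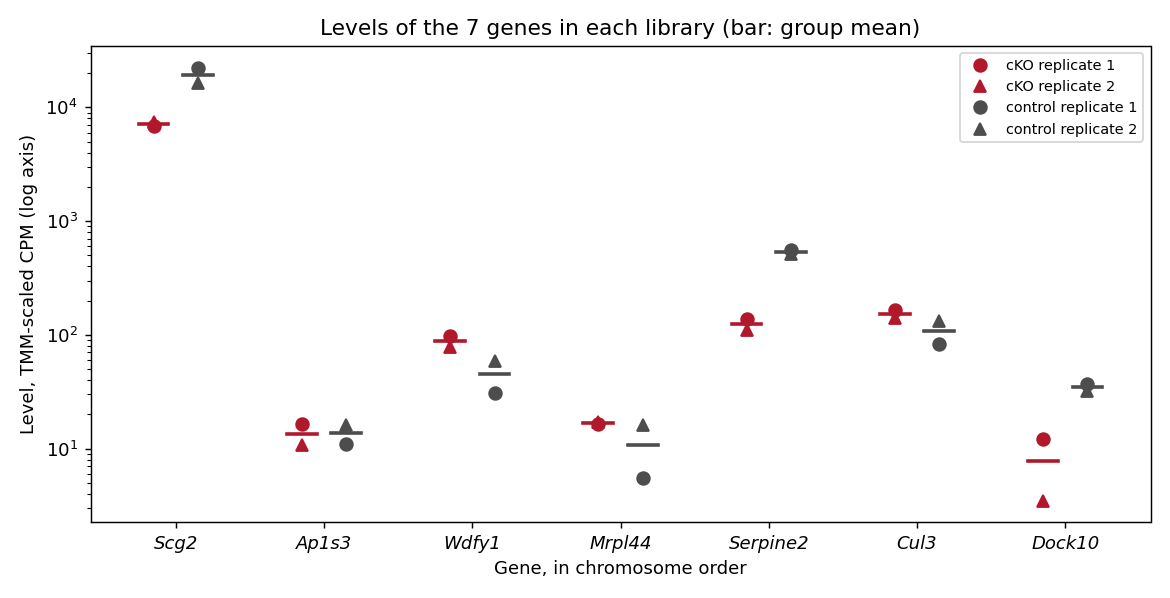
Level of each of the 7 genes in CPM on a log axis, with cKO libraries left of control libraries, a point for each library and a bar for the mean of each group (n = 2). Scg2, Serpine2 and Dock10 have both cKO points below both control points, Wdfy1, Mrpl44 and Cul3 have them above, and Ap1s3 overlaps.

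Of the 3 protein-coding genes between Scg2 and Serpine2, 0 had both cKO libraries below both controls, against 19.3% of all genes tested, and 2 had both above, against 19.7%. edgeR called 0 of the 3, against 0.0576% of all genes tested, so counts this small say little about the 3 genes as a set. Ap1s3 (79606876 to 79671972, minus strand), the listed gene nearest to Scg2, at 166.755 kb, had 16.3 and 10.7 CPM in cKO against 11.0 and 16.2 CPM in control libraries. The groups overlapped fully, with 1 high and 1 low library in each. The means were 13.5 ± 3.95 CPM in cKO and 13.6 ± 3.68 CPM in control (SD, n = 2 each), which gave a log2 difference of -0.02 (SE 0.55, adjusted p = 0.999, edgeR). The 95% interval of -1.32 to 1.28 includes differences over 2-fold in either direction, so at 121 to 339 counts a library a difference of that size was not detectable. The sign of this value turned to 0.29 without control replicate 2 and to 0.25 without cKO replicate 2.

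Wdfy1 (79702262 to 79776143, minus strand) had 96.7 and 78.5 CPM in cKO, against 30.6 and 59.2 CPM in control libraries. Both cKO libraries were higher than both controls, and control replicate 1 was far the lowest. The mean was 87.6 ± 12.9 CPM in cKO and 44.9 ± 20.2 CPM in control (SD, n = 2 each), a log2 fold change of 0.96 (SE 0.34, 95% interval 0.16 to 1.76) that did not pass the threshold (adjusted p = 0.654, edgeR; unadjusted p = 0.0254). The ratio of the group means was 1.95, and control replicate 2 was 1.94 times control replicate 1. Without control replicate 1 the log2 fold change was 0.56, and without control replicate 2 it was 1.52 with an adjusted p of 0.0247.

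Mrpl44 (79776018 to 79781445) is the only one of the 7 on the plus strand. Its first 126 bases overlap exon bases of Wdfy1, and with no strand setting stated the reads there cannot be told apart. Mrpl44 had 16.5 and 17.1 CPM in cKO, against 5.46 and 16.2 CPM in control libraries. The cKO libraries were higher than both controls, but control replicate 2 lay almost level with them and control replicate 1 alone was low. The log2 fold change was 0.63 (SE 0.65, adjusted p = 0.999, edgeR), and it was 0.05 without control replicate 1 and 1.62 without control replicate 2.

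Beyond Serpine2, Cul3 (80264923 to 80340480, minus strand) begins after a gap of 403.742 kb. It had 164 and 139 CPM in cKO, against 83.3 and 133 CPM in control libraries. Control replicate 2 again lay close to the cKO libraries, with control replicate 1 lower. The log2 fold change was 0.49 (SE 0.26, 95% interval -0.11 to 1.09, adjusted p = 0.776, edgeR), and it was 0.18 without control replicate 1 and 0.87 without control replicate 2.

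Dock10 (80501073 to 80758527, minus strand, 58 exons) had 12.0 and 3.48 CPM in cKO, from 187 and 62 counts, against 37.1 and 31.9 CPM in control libraries, from 408 and 667 counts. Both cKO libraries were below both controls, and the cKO libraries differed from each other more than the controls did. The mean was 7.75 ± 6.04 CPM in cKO and 34.5 ± 3.70 CPM in control (SD, n = 2 each), or 22.5% of control. The log2 fold change of -2.15 was close to that of Serpine2, but its SE was 0.62 (95% interval -3.62 to -0.69) and it did not pass the threshold (adjusted p = 0.574, edgeR; unadjusted p = 0.0102). It passed in DESeq2 (adjusted p = 0.0101) and limma-voom (adjusted p = 0.015), and without cKO replicate 1, where it was -3.31 with an adjusted p of 0.00654 in edgeR; without cKO replicate 2 it was -1.53. Dock10 is also expressed in white blood cells: the summed level of 8 macrophage and leukocyte markers was 3.15 and 16.2 CPM in cKO, against 24.8 and 13.1 CPM in control libraries, with C1qa and C1qb at 0 in all 4, and its part in the Dock10 difference was not tested.

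Levels were also set per length of exon, counted as all annotated exon bases of a gene merged over its transcripts. That can exceed the length of the transcript present, 8287 bases for Serpine2 and 18267 for Dock10, so the order below holds for this length only. Scg2 stood apart from the other 6 in both groups, with a mean of 2859 CPM per kb in cKO and 7717 CPM per kb in control. Serpine2 was next in control libraries at 64.7 CPM per kb, above Cul3 at 22.2. In cKO libraries Cul3 was next at 31.1 CPM per kb, above Serpine2 at 14.9 and Wdfy1 at 13.5. The Serpine2 and Wdfy1 levels in cKO, 16.6 and 13.2 CPM per kb for Serpine2 and 14.9 and 12.1 for Wdfy1, did not differ beyond their spread. Mrpl44 averaged 10.2 CPM per kb in cKO and 6.59 in control, Ap1s3 4.68 in cKO and 4.73 in control, and Dock10, the lowest, 0.425 in cKO and 1.89 in control. In control libraries Wdfy1 (4.71 and 9.12), Mrpl44 (3.32 and 9.85) and Ap1s3 (3.82 and 5.63) overlapped and cannot be ordered.

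Over the whole table edgeR called 10 of the 17349 genes, or 0.0576%, and 8 of these, or 0.0461%, were lower in cKO. Scg2 and Serpine2 were the 2 called among 1056 tested genes of chromosome 1, a count that follows from how they were chosen. Of the 5 other listed genes, edgeR called 0, and Wdfy1 and Dock10 had an unadjusted p under 0.05, against 7.04% of all genes tested; DESeq2 and limma-voom each called Dock10 alone, against 5.44% of all genes tested for DESeq2 and 1.48% for limma-voom. Of these 5, 1 (Dock10) had both cKO libraries below both controls, against 19.3% of all genes tested, and 3 (Wdfy1, Mrpl44 and Cul3) had both above, against 19.7%. Their log2 fold changes had a median of 0.49, against 0.03 over all genes tested.

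In a window from 1 Mb before the first listed gene to 1 Mb after the last, 48 genes are annotated, 24 of them with no count in any library and 17 tested. Without Scg2 and Serpine2, 15 were tested, with 10 higher and 5 lower in cKO, against 9099 higher and 8250 lower over all genes tested. edgeR called 0 of the 15, against 0.0576% of all genes tested. DESeq2 and limma-voom each called Dock10, against 5.44% of all genes tested for DESeq2 and 1.48% for limma-voom. The 2 with an unadjusted p under 0.05 in edgeR were again Wdfy1 and Dock10, against 7.04% of all genes tested. Of 9 further protein-coding genes of the window, 5 had too few counts to be tested and 4 were tested and not called. Farsb, a subunit of phenylalanyl-tRNA synthetase on the Scg2 side, had 32.9 and 30.2 CPM in cKO against 50.4 and 37.8 CPM in control libraries (log2 fold change -0.48, SE 0.31, adjusted p = 0.881, edgeR), with the cKO libraries lower. Acsl3, a long-chain acyl-CoA synthetase, had 88.1 and 60.0 CPM in cKO against 64.1 and 57.1 CPM in control libraries, with overlapping groups. Utp14b, a ribosomal RNA processing gene that shares 244 exon bases with Acsl3, had 66.7 and 33.0 CPM in cKO against 25.7 and 38.0 CPM in control libraries, also overlapping. Nyap2, a phosphoprotein of neurons on the Dock10 side, had 44.4 and 46.3 CPM in cKO against 36.3 and 38.9 CPM in control libraries, with the cKO libraries a little higher (log2 fold change 0.27, SE 0.27, edgeR adjusted p = 0.999).

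**Figure D2:**
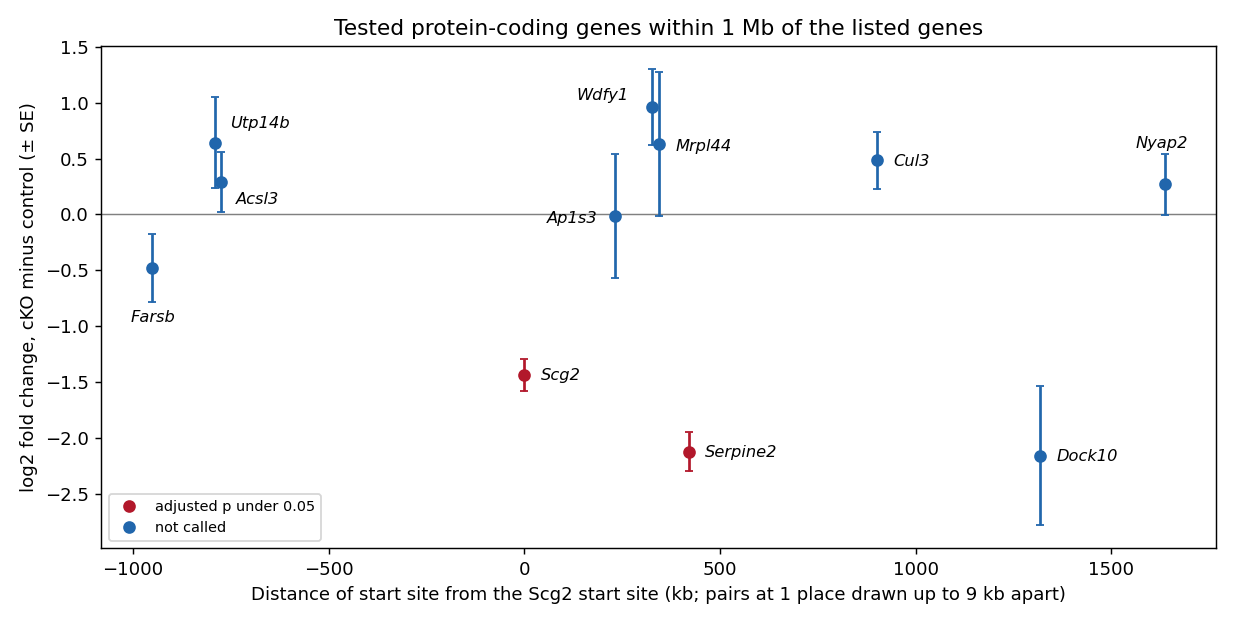
log2 fold change (cKO minus control, ± SE) of the 11 tested protein-coding genes in the 1 Mb window against the distance of each start site from that of Scg2 in kb, with called genes in red and the others in blue. Scg2 at -1.43 and Serpine2 at -2.12 flank Ap1s3, Wdfy1 and Mrpl44, which lie between -0.02 and 0.96, and Dock10 at -2.15 has a wider error.

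Within 5 Mb on either side, 81 genes other than the pair were tested, with 46 higher and 35 lower in cKO and a median log2 fold change of 0.06. edgeR called 0, and 6 had an unadjusted p under 0.05, a share close to the 7.04% of all genes tested. Of these 6, Wdfy1 was higher and Resp18, Ihh, Dock10, Speg and Cdk5r2 were lower (Ihh, Speg and Cdk5r2 are named after their values were seen). Resp18, which codes for a granule protein of endocrine cells and starts at -4161.705 kb from the Scg2 start, had 224 and 211 CPM in cKO against 673 and 486 CPM in control libraries. Its groups did not overlap (log2 fold change -1.41, SE 0.19). DESeq2 called Ihh, Resp18, Speg and Dock10 in this window, limma-voom called Resp18 and Dock10, and edgeR's newer method called Resp18, each of them lower in cKO. The same tools called 5.44% (DESeq2), 1.48% (limma-voom) and 0.271% (edgeR's newer method) of all genes tested, so these few calls show nothing particular to the window.

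**Figure D3:**
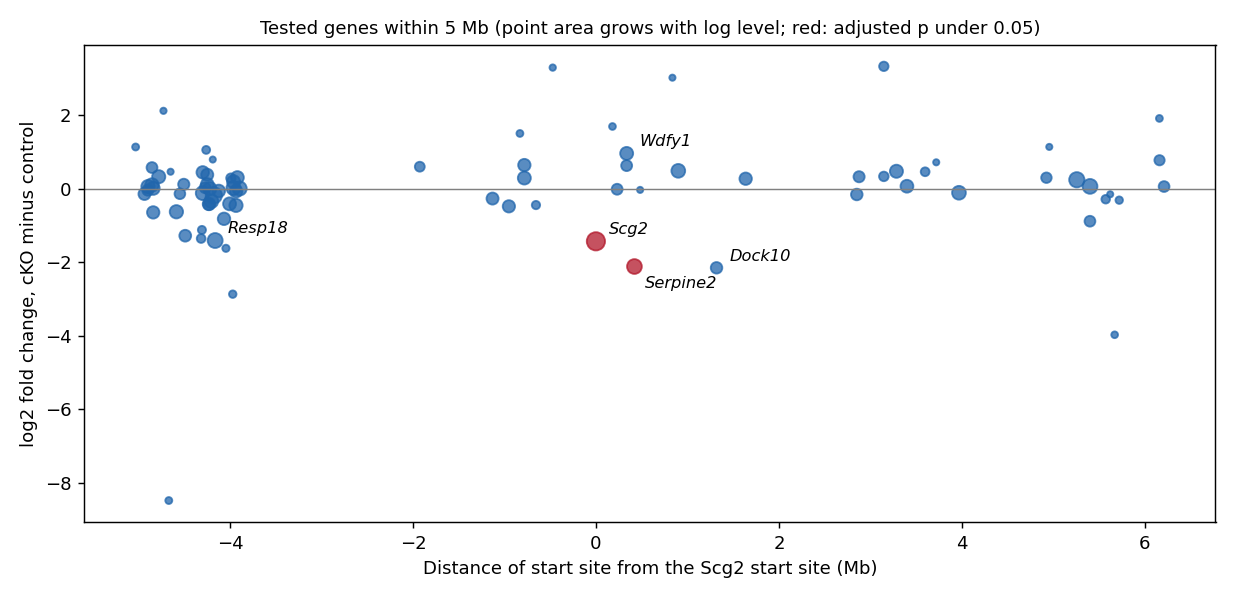
log2 fold change (cKO minus control) of the 83 tested genes within 5 Mb of the listed genes against the distance of each start site from that of Scg2 in Mb, with point area growing with level, and with Scg2 and Serpine2 in red. The other genes scatter on both sides of 0, and the lowest point has no count in either cKO library, so its fitted value depends on the prior count and is no measure of size.

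The families of Scg2 and Serpine2 are counted here without the gene that was chosen on this comparison. Of the 6 other granins and granin-like proteins, 5 were lower in cKO, against 8250 of 17349 genes tested, with a median log2 fold change of -0.37 against 0.03. Both cKO libraries were below both controls for 3 of the 6, against 19.3% of all genes tested. In the other 3 the groups overlapped: Scg3 (log2 fold change 0.02), Pcsk1n (-0.19) and Vgf (-0.30), named after their values were seen. edgeR called 1 of the 6, Chga, against 0.0461% of all genes called lower. Chga, or chromogranin A, which drives granule formation, fell to 1275 and 1317 CPM in cKO, against 9420 and 11230 CPM in control libraries (log2 fold change -2.99, SE 0.12, adjusted p = 0.000404, edgeR). Chgb, or chromogranin B, had 1293 and 1291 CPM in cKO against 2755 and 2309 CPM in control libraries, with no overlap, and narrowly missed the threshold (log2 fold change -0.97, SE 0.12, adjusted p = 0.0843, edgeR). DESeq2, limma-voom and edgeR's newer method each called Chga and Chgb, and limma-voom also called Scg5, each lower in cKO. These tools called 5.44%, 1.48% and 0.271% of all genes tested. Of the 11 other tested genes for plasminogen activators, thrombin, their receptors and inhibitors, 7 were lower and 4 higher, with a median log2 fold change of -0.47. edgeR and its newer method called 0 of the 11, against 0.0576% and 0.271% of all genes tested. The 2 with an unadjusted p under 0.05 were Lrpap1 and Serpinf2, against 7.04% of all genes tested. DESeq2 called both, against 5.44% of all genes tested, and limma-voom called Lrpap1, against 1.48%. Lrpap1, the chaperone of the LRP1 receptor that clears serpin and protease complexes, had 157 and 149 CPM in cKO against 301 and 236 CPM in control libraries (log2 fold change -0.81, SE 0.18, adjusted p = 0.394, edgeR). Serpinf2, the plasmin inhibitor antiplasmin, had no count in cKO libraries against 4.91 and 1.29 CPM in control libraries. The proteases that SERPINE2 inhibits were scarce: Plat, tissue plasminogen activator, had 10.5 and 1.24 CPM in cKO against 0 and 4.21 CPM in control libraries, and Plau, urokinase, had 0 and 3.77 CPM in cKO against 0 and 0.621 CPM in control libraries (both named after their values were seen).

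The families of the 5 neighbours had no gene called by edgeR, against 0.0576% of all genes tested. Their counts of genes at an unadjusted p under 0.05 stand beside 7.04% of all genes tested. Of 11 AP-1 adaptor genes 5 were higher and 6 lower, with a median log2 fold change of -0.02 and 1 at an unadjusted p under 0.05. That gene was Ap1s2, the paralog of Ap1s3, with 33.2 and 28.7 CPM in cKO against 8.37 and 19.0 CPM in control libraries (log2 fold change 1.17, SE 0.49, adjusted p = 0.700, edgeR). Of 6 tested genes of the WDFY proteins and Toll-like receptor 3 pathway, 4 were higher, with a median of 0.09 and Wdfy1 alone at an unadjusted p under 0.05. Ticam1, the adaptor TRIF, had 59.1 and 55.3 CPM in cKO against 7.55 and 46.5 CPM in control libraries, with control replicate 1 again the low one. Of 48 tested genes of the mitochondrial large ribosomal subunit 34 were lower, with a median of -0.23, so Mrpl44 at 0.63 lay on the other side of 0 from most of them; Mrpl54 alone had an unadjusted p under 0.05 (log2 fold change -1.22, SE 0.44, adjusted p = 0.654, edgeR).

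Of 25 cullins and CUL3 ligase partners 16 were higher and 9 lower, with a median log2 fold change of 0.19. Klhl21, a substrate adaptor of CUL3 ligases that acts in cell division, was the one at an unadjusted p under 0.05. It had 130 and 120 CPM in cKO against 59.3 and 63.1 CPM in control libraries, with a wide gap between the groups (log2 fold change 1.03, SE 0.20, adjusted p = 0.297, edgeR), and DESeq2 and limma-voom both called it. Of 11 DOCK genes 7 were lower, with a median of -0.22 and 2 at an unadjusted p under 0.05, Dock10 and Dock2. Dock2, an exchange factor of white blood cells, had 0 and 1.69 CPM in cKO against 20.2 and 11.2 CPM in control libraries (log2 fold change -4.19, SE 1.59, adjusted p = 0.679, edgeR). DESeq2 and limma-voom called Dock10 alone in this list. Neither of these nor edgeR's newer method called a gene of the AP-1, WDFY or mitochondrial lists. Over all genes tested, DESeq2 called 5.44%, limma-voom 1.48% and edgeR's newer method 0.271%, and 7.04% had an unadjusted p under 0.05 in edgeR. These few calls therefore say little about the lists.

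**Figure D4:**
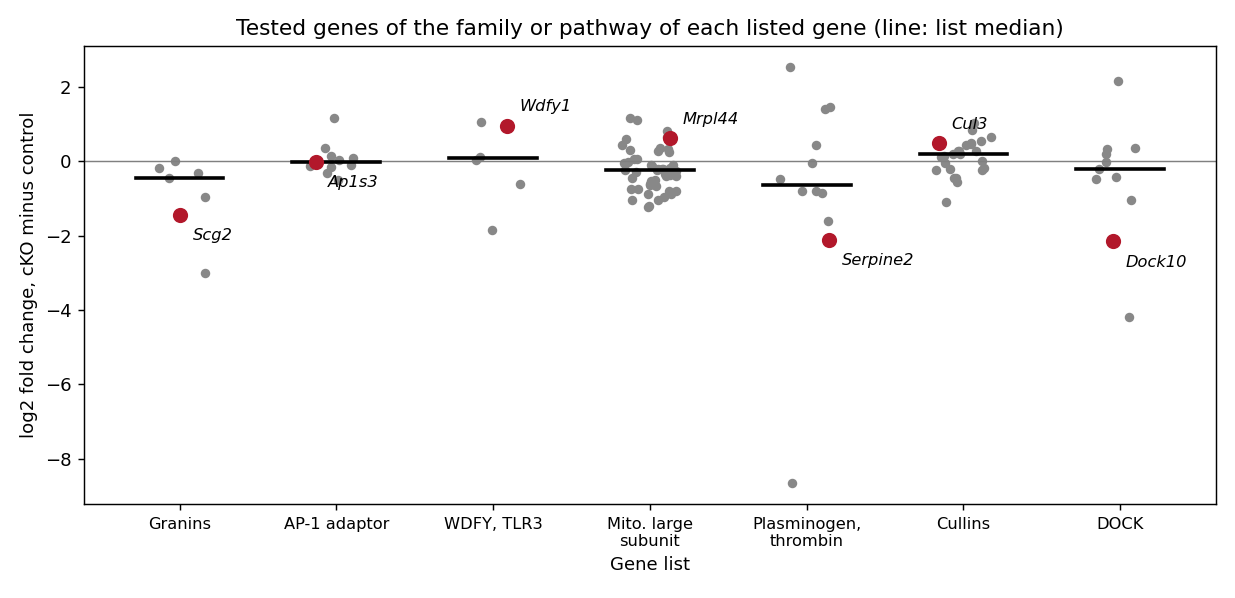
log2 fold change (cKO minus control) of the tested genes in 7 lists, a grey point for each gene, a red point for the listed gene of the locus and a black line for the median. Each median counts the red gene too, so the lines for the lists of Scg2 and Serpine2 are at -0.45 and -0.63. Scg2, Serpine2 and Dock10 lie below their list's median and Wdfy1, Mrpl44 and Cul3 above it; the lowest point is Serpinf2, with no count in cKO libraries, whose fitted value depends on the prior count.

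Likeness of pattern over the 4 libraries was measured as the distance between log2 CPM values centred on each gene's mean. It was taken over 11618 genes whose average log2 CPM was 2 or more. Symbols of Gm and a number, ending in Rik, marked -ps or missing were passed over. The 5 genes nearest to Scg2 were Zfp850 (0.0817), Ppp1r3f (0.0910), Zfp128 (0.112), Pitx1 (0.146) and Resp18 (0.150). Zfp850 was at a low level, with 4.69 and 4.78 CPM in cKO against 15.5 and 11.1 CPM in control libraries (log2 fold change -1.48, SE 0.70, adjusted p = 0.731, edgeR). Pitx1, a homeodomain factor of the anterior pituitary, had 209 and 219 CPM in cKO against 725 and 547 CPM in control libraries, so control replicate 1 was the highest, as for Scg2. The 5 nearest to Serpine2 were Cryz (0.183), Cbx8 (0.255), Sez6 (0.278), Sytl2 (0.303) and Ephx2 (0.325). Cryz was at a low level too, with 1.80 and 1.41 CPM in cKO against 7.73 and 7.79 CPM in control libraries (log2 fold change -2.27, SE 1.21, adjusted p = 0.789, edgeR). Sez6, a membrane protein of neurons, had 57.9 and 53.5 CPM in cKO against 217 and 198 CPM in control libraries. Serpine2 itself lay at 0.804 from Scg2, the 590th nearest of the 11618 genes, and the pair differ in the size of their fold changes (-1.43 and -2.12). With 4 libraries such distances describe these libraries only.

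**Figure D5:**
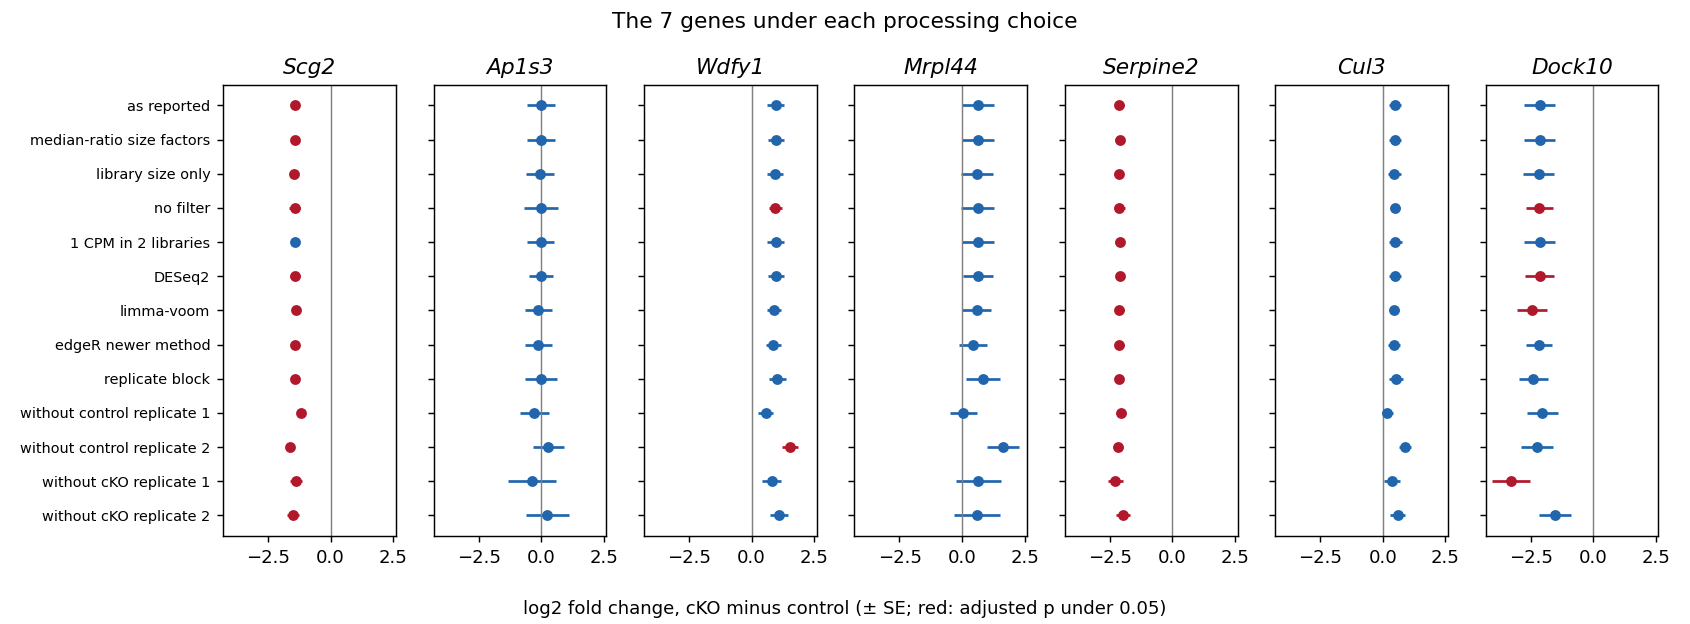
log2 fold change (cKO minus control) of each of the 7 genes as reported and under 12 other processing settings, with bars of ± SE and with red for an adjusted p under 0.05. Scg2 ranges from -1.64 to -1.20 and Serpine2 from -2.30 to -1.97, Dock10 stays below 0 between -3.31 and -1.53, Wdfy1, Mrpl44 and Cul3 stay above 0, and Ap1s3 lies on both sides.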

How the data were processed

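The submitters' processing notes name STAR 2.5.1b, featureCounts 1.5.0-p1 and the mm10 build. The sources used here do not give the annotation release, the strand setting or the treatment of reads that match several places. The authors deposited estimated counts for each gene, with no scaling between libraries, and 4.50% of the deposited values were not whole, which leaves some reads shared among genes. Of 54532 identifiers 54495 matched GENCODE M21 with the version left off.

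Counts were rounded, filtered with filterByExpr (minimum count 10, minimum total 15, by group) and scaled with TMM. All 17349 genes left were tested together with edgeR 4.0.16 in R 4.3.3 (glmQLFit and glmQLFTest, two-sided), with group as its term. Genes with a p under 0.05 after Benjamini-Hochberg adjustment over them were called. SE is the size of the log2 fold change (cKO minus control) divided by the square root of F. Distances between genes used log2 CPM with a prior of 0.5 CPM. DESeq2 1.42.0 and limma 3.58.1 were among the alternatives.

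The listed genes and all gene lists were chosen with earlier results of these data known. Named genes were the 7 listed, Gata2, the other tested protein-coding genes of the 1 Mb window, up to 3 genes with the smallest p from each family list, and the 5 genes most like Scg2 and Serpine2. Those outside the rule are said to be named after their values were seen.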

Additional observations from a re-analysis of the deposited data

How the results depend on the processing

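Among all genes tested 10 were called, and 253 with no filter, 3 with a filter of 1 CPM in 2 libraries, 943 in DESeq2, 256 in limma-voom, 47 with edgeR's newer method and 66 to 681 with 1 library left out (66 without control replicate 1, 681 without control replicate 2). The number of genes tested differed between these settings. It was 17349 as reported, 24261 with no filter and 16466 with the 1 CPM filter. With 1 library left out it was 19463 to 20627. Of the other genes in the 1 Mb window, edgeR called 0 of 15 tested as reported. With no filter it called 2 of 20 (Wdfy1 and Dock10), and with the 1 CPM filter 0 of 14. DESeq2 and limma-voom each called 1 of the 15, Dock10. With 1 library left out, 16 or 17 of the window's other genes were tested. Wdfy1 was then at 1.52 without control replicate 2, and Dock10 at -3.31 without cKO replicate 1. The share of the 15 genes that was lower in cKO was 33.3%, against 43.2% of 81 genes with the 5 Mb window. Serpine2 was called under all 12 alternatives and Scg2 under 11, with an adjusted p of 0.0602 (edgeR) under the 1 CPM filter. Ap1s3 was not called under any alternative, and with 1 library left out it ranged from -0.35 to 0.29, its sign turning without control replicate 2 (0.29) and without cKO replicate 2 (0.25). Where 1 library was left out, the lone library was assumed to vary like the other group. Same-numbered libraries did not deviate together (r = -0.0105 across genes). A value near 0 cannot exclude that they were handled as pairs, which the labels do not state. With the replicate number as a block 7 genes were called, no call changed among the 7 listed genes, and Dock10 was at -2.40. Counts of 60 to 339 behind Ap1s3 and Mrpl44 limit what could be seen there. The causes of these differences were not tested.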
